A study of Oryza sativa with 12 samples.

Results

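The cultivar difference between unstressed leaves of the rice cultivars APO and IR64 was examined in polysome-bound mRNA, the messages carried by ribosomes. The members are the 6 libraries whose labels give the treatment as control, 3 of APO and 3 of IR64, out of 12 libraries in the series. The other 6 libraries, 3 per cultivar, carry the label drought, which the series title gives as 50% drought, and they enter here only as a second look at genes found in the control plants. The title calls APO tolerant and IR64 susceptible, and both are indica rice. Every library was made from leaf, from polysomal RNA taken up in TRIzol. Nothing in the labels ties the 3 libraries of a group to different plants or gives the hour of sampling, so each p-value measures a spread between libraries that may be technical. Total RNA was not analysed here, so polysome loading and mRNA abundance cannot be told apart. In leaf samples, fewer cells of a type cannot be told apart from less RNA per cell.

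A message is translated by several ribosomes at once, and the resulting polysomes can be purified and their mRNA sequenced. Cultivars of a crop differ in such a profile through genes that 1 genome lacks or carries in a changed form and through genes expressed at different levels. In leaves much of the nuclear profile is devoted to photosynthesis, and many of these genes follow the circadian clock, in which morning genes such as CCA1 repress evening genes that in turn repress them.

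Levels are given as nuclear-scaled TPM, a measure of transcript abundance corrected for gene length and recomputed so that the nuclear loci other than ribosomal RNA sum to the same total in each library, that of the usual TPM. Differences are given on the scale of log2(nuclear-scaled TPM + 1), as APO minus IR64. Of 37849 nuclear loci, 26510 had a mean of at least 1 nuclear-scaled TPM over the 6 control libraries and were tested with limma, a linear model that shares information on the spread between genes. A gene was called at a Benjamini-Hochberg adjusted p below 0.05 over all genes tested.

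The libraries differed greatly in what they held. The nuclear loci took 33.0, 77.5 and 5.04% of the deposited TPM in APO control 1 to 3 and 59.9, 79.8 and 83.3% in IR64 control 1 to 3, and ribosomal RNA took 93.0% in APO control 3. The mean read depth per base over nuclear loci was 1.13 in APO control 3 and 6.03 to 89.8 in the other control libraries. APO control 3 stood apart, with Spearman correlations of 0.41 to 0.53 with the other control libraries across the tested genes. IR64 control 3 correlated at 0.95 with APO control 2 but at 0.88 with both IR64 control 1 and IR64 control 2, which correlated at 0.96 with each other. The leaf label was borne by 5 loci of the Rubisco small subunit, whose levels summed to 6609 to 15964 nuclear-scaled TPM in the 6 libraries, whereas 4 root markers summed to at most 1.08 in every control library except APO control 3, where they reached 25.5. Seed markers (34 measured) summed to 6.92 to 12.8 in the other libraries and to 74.0 in APO control 3. Meristem markers (6 measured) summed to 49.4 to 121 in the other libraries, with 1 above 1 nuclear-scaled TPM in each. They summed to 154 in APO control 3, with 5 above 1. Guard cell markers (2 measured) summed to 5.86 to 47.8 in the other libraries and to 22.0 in APO control 3. The part of these markers in the results was not tested.

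In control plants 83 genes were called, 0.313% of those tested. Of these, 67 were higher in APO (0.253%) and 16 were higher in IR64 (0.0604%). They were large differences, from 3.02 to 10.14 log2 units among the genes higher in APO and from 2.82 to 5.48 in size among those higher in IR64. Many were nearly present or absent: 13 of the 67 were listed at 0 in all IR64 control libraries and 6 of the 16 were listed at 0 in all APO control libraries. Only 19 of the 83 had a gene symbol in the tables, 22.9% against 29.9% of all genes tested. The median log2 difference of all tested genes was 0.62 in favour of APO, 0.35 without APO control 3, 0.02 under median-of-ratios scaling, -0.85 in deposited TPM and -0.75 in deposited FPKM. That shift is not subtracted from the differences below unless stated.

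How many genes passed depended on single libraries and on the scaling. Without APO control 1 or APO control 2 only 1 gene was called, without IR64 control 1 there were 22, without IR64 control 2 there were 28, without APO control 3 there were 132 and without IR64 control 3 there were 2249. The split moved from 67 and 16 to 63 and 38 under median-of-ratios scaling, to 32 and 24 under quantile normalization, and to 67 and 256 in the deposited TPM. All 83 genes kept their direction in each of the 19 alternatives. Their groups lay at least 1 log2 unit apart, so leaving out a library could not have reversed them. The 1 gene called without APO control 1 or APO control 2 was OsJAC1, so the other calls below were lost without either of them.

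The gene with the largest difference was OsJAC1 (Os12g0247700, chromosome 12, 8239432 to 8241147 in the deposited tables), which encodes a jacalin-related mannose-binding lectin linked to disease resistance. OsJAC1 stood at 3496, 1340 and 4827 nuclear-scaled TPM in APO control 1 to 3 and at 0.39, 1.60 and 3.40 in IR64 control 1 to 3. The groups lay far apart, with a log2 difference of 10.14 (SE 0.60, adjusted p = 0.000637, limma), and OsJAC1 alone among the 83 genes was called in all 19 alternatives. Its gene model overlaps 1 other annotated locus, so reads could be shared between them.

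Several of the called genes higher in APO are known from defence and cell signalling. HSR201 (Os12g0458100), named after a tobacco gene induced in the hypersensitive response, stood at 66.2, 30.4 and 198 in APO and was listed at 0 in all 3 IR64 control libraries (adjusted p = 0.0133, limma). OsLOX11 (Os12g0559200), a lipoxygenase, an enzyme that oxidises fatty acids, stood at 3433, 1155 and 3147 in APO and at 53.3, 163 and 45.4 in IR64 (log2 difference 4.96, SE 0.64, adjusted p = 0.0234). OsWRKY50 (Os11g0117600), a WRKY transcription factor, stood at 65.8, 20.0 and 162 in APO and at 1.28, 0.73 and 1.66 in IR64 (4.80, SE 0.73, adjusted p = 0.0374). In these genes the lowest APO library was APO control 2, and it still lay well above every IR64 library. RBBI2-1 (Os01g0124000), a Bowman-Birk type protease inhibitor, stood at 1568, 447 and 642 in APO and at 25.3, 37.8 and 63.7 in IR64 (4.25, SE 0.56, adjusted p = 0.0262). OsPLC4 (Os05g0127200), a phospholipase C that cleaves membrane phosphoinositides, stood at 69.0, 30.2 and 130 in APO and at 2.24, 1.76 and 5.84 in IR64 (4.06, SE 0.63, adjusted p = 0.0411). OsRALF-34 (Os12g0218300), of a family of small secreted signalling peptides, stood at 21.4, 14.3 and 27.9 in APO and was listed at 0 in the 3 IR64 control libraries (adjusted p = 0.0282). The models of OsLOX11 and OsPLC4 overlap other annotated loci.

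Others of the 15 named genes higher in APO belong to metabolism and growth. OsTPP7 (Os09g0369400, chromosome 9, 12251875 to 12254061), a trehalose-6-phosphate phosphatase, lies at a locus for germination under water that is known to be deleted in IR64. OsTPP7 stood at 85.8, 64.1 and 20.7 in APO and at 1.53, 0 and 0 in IR64, a log2 difference of 5.19 (SE 0.70, adjusted p = 0.0267, limma). The low reading in IR64 control 1 was the only one above 0 in that cultivar. OsFWL8 (Os03g0830300), of the FW2.2-like family of cell number regulators, stood at 37.1, 35.9 and 34.3 in APO and was listed at 0 in the 3 IR64 control libraries (adjusted p = 0.0112). OsSDR110C-MI4 (Os07g0663800), a short-chain dehydrogenase, stood at 49.1, 12.1 and 75.1 in APO and at 0, 0.62 and 0.82 in IR64 (4.68, SE 0.74, adjusted p = 0.0414). OsIGL (Os03g0797400), which releases indole, stood at 64.5, 39.1 and 49.0 in APO and at 2.63, 4.09 and 5.39 in IR64 (3.37, SE 0.47, adjusted p = 0.0282). For OsFWL8 and OsIGL the 3 libraries of each cultivar lay close together. The remaining named genes higher in APO were OsCslA11 of the cellulose synthase-like family, the peroxidase POX22.3, the low-temperature germination gene qLTG-3-1(t) and the cytochrome P450 OsCYP96B5, with log2 differences of 3.92, 3.52, 3.51 and 3.47.

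Among called genes with no symbol, Os11g0165700 stood at 3312, 282 and 3067 in APO and at 1.07, 4.04 and 27.3 in IR64 (7.74, SE 1.11, adjusted p = 0.0305, limma). Here APO control 2 lay between the other APO libraries and IR64 control 3. Os01g0108400 stood at 108, 40.6 and 325 in APO and at 0, 0 and 1.86 in IR64 (6.33, SE 0.79, adjusted p = 0.0194). Os11g0665600 stood at 89.1, 48.7 and 76.4 in APO and was listed at 0 in the IR64 control libraries (adjusted p = 0.00862).

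**Figure D1:**
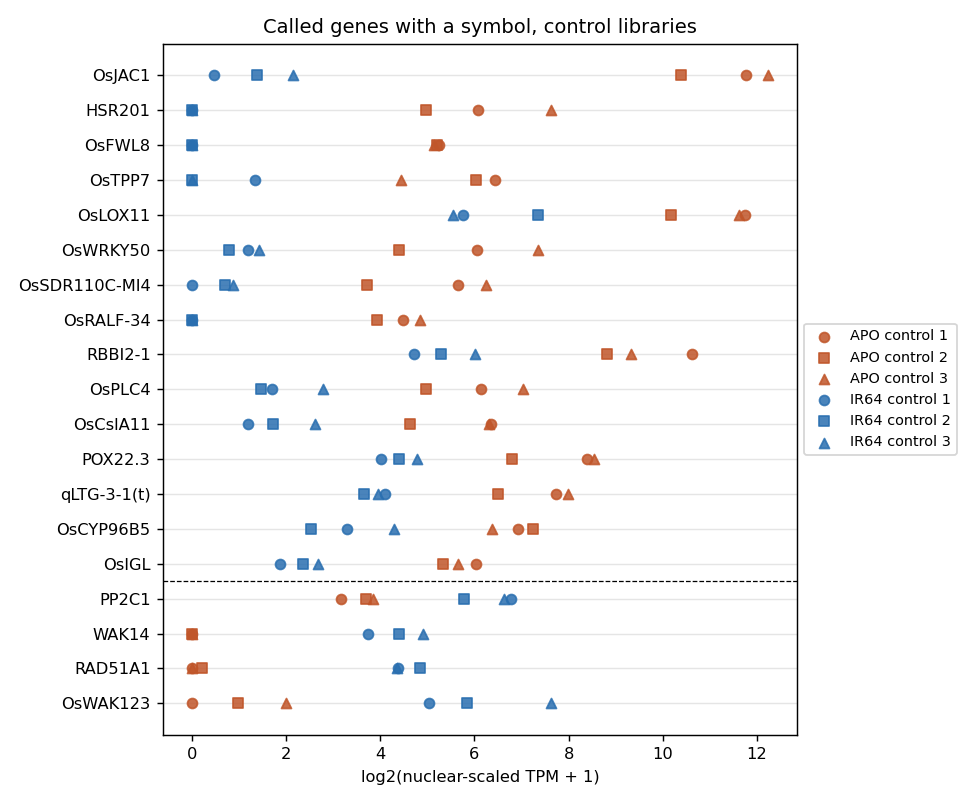
Called genes with a symbol in the 6 control libraries. The x axis is log2(nuclear-scaled TPM + 1), each row is 1 gene, colours mark the cultivar and marker shapes the library number, and the 15 genes above the dashed line were higher in APO and the 4 below it higher in IR64. No gene shown has an APO library among its IR64 libraries.

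Of the named genes 4 are on the IR64 side, and a pair of them are wall-associated kinases, receptor-like kinases that span the membrane and contact the cell wall. OsWAK123 (Os11g0694100) stood at 0, 0.96 and 2.97 in APO and at 31.7, 56.5 and 196 in IR64, a log2 difference of -5.18 (SE 0.77, adjusted p = 0.0364, limma). WAK14 (Os02g0632800) was listed at 0 in all 3 APO control libraries and stood at 12.4, 19.9 and 28.9 in IR64 (adjusted p = 0.0324). Both models overlap another annotated locus. Of the list of 86 tested disease resistance and pathogenesis-related genes these were the 2 called, and none of its members was called higher in APO. The list's median log2 difference of 1.05 lay above the 0.62 of all genes. The list, matched by locus or symbol, does not hold OsJAC1, HSR201 or OsWRKY50, which were called higher in APO, so it does not cover all called genes linked to defence. OsWAK15, the neighbouring locus of WAK14, had values of the other sign that did not pass, at 3.61, 2.17 and 4.16 in APO and 0.21, 0.37 and 0.20 in IR64 (adjusted p = 0.48, limma).

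RAD51A1 (Os11g0615800), a recombinase that pairs DNA strands during repair and meiosis, stood at 0, 0.16 and 0 in APO and at 19.8, 27.7 and 19.6 in IR64 (log2 difference -4.46, SE 0.59, adjusted p = 0.0262, limma). PP2C1 (Os09g0325700), a protein phosphatase 2C, stood at 8.02, 12.0 and 13.4 in APO and at 108, 54.2 and 97.6 in IR64 (-2.82, SE 0.45, adjusted p = 0.0414). RAD51A1 was near absent in APO, whereas PP2C1 was measured in every library of both cultivars. The largest difference without a symbol was Os12g0299700, listed at 0 in the APO control libraries and at 31.9, 32.0 and 80.5 in IR64 (adjusted p = 0.0117). Os05g0103800 was also listed at 0 in the APO control libraries and stood at 24.6, 26.0 and 55.7 in IR64 (adjusted p = 0.0145). Os08g0174800 stood at 0, 0 and 4.15 in APO and at 30.5, 49.2 and 79.3 in IR64 (-4.86, SE 0.75, adjusted p = 0.0388).

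Since only 4 named genes were called on the IR64 side, the rule for naming filled the 10 by size from uncalled genes whose groups do not overlap. None of these 6 passed, larger differences in genes whose groups overlap (OsSIG5 at -6.11 and OS-PYDK at -5.63) are left out by that rule, and IR64 control 3 lay nearer to APO than the other IR64 libraries did. OsMRS2-6 (Os03g0684400), of a family of magnesium transporters, stood at 1.06, 3.12 and 0 in APO and at 152, 214 and 5.75 in IR64 (log2 difference -4.89, SE 1.20, adjusted p = 0.23, limma). OsHOL1 (Os03g0843800) stood at 0, 2.08 and 0 in APO and at 77.8, 58.1 and 7.15 in IR64 (-4.53, SE 0.92, adjusted p = 0.125). The glutathione S-transferase OsGSTF1 (Os01g0371200) stood at 12.7, 16.6 and 0 in APO and at 239, 233 and 22.8 in IR64 (-4.15, SE 1.19, adjusted p = 0.36). OsGSTU8, BOR2 and OsSWEET2b completed the 10 and had adjusted p of 0.39, 0.37 and 0.44 (limma).

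The genes were then separated by how the libraries of a cultivar agreed, as counts with no test. All 3 APO libraries lay above all 3 IR64 libraries in 3078 genes (11.6%), and all 3 IR64 libraries lay above all APO libraries in 1002 (3.78%). With a gap of at least 1 log2 unit between the cultivars, 341 genes (1.29%) had APO above and 179 (0.675%) had IR64 above, and all 83 called genes were among them. In the 341 genes the median level was 12.2, 7.51 and 20.1 in APO control 1 to 3 and 0.26, 0.10 and 0.21 in IR64 control 1 to 3. In the 179 genes it was 0, 0.56 and 0 in APO and 8.82, 8.99 and 9.75 in IR64. By this rule IR64 control 3 lies with its own cultivar in these genes, and its median was close to those of IR64 control 1 and 2.

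A much larger class held genes where IR64 control 3 lay with APO. In this class the other 5 libraries split by cultivar with a gap of at least 1 log2 unit, and IR64 control 3 was nearer to the nearest APO library than to the nearest IR64 library. It held 3165 genes (11.9%), 888 with IR64 control 1 and 2 high (3.35%) and 2277 with them low (8.59%), and none of the 3165 was called. The same count gave 1662 genes (6.27%) for APO control 2 lying with IR64, 176 (0.664%) for APO control 3, 78 (0.294%) for APO control 1, 18 (0.0679%) for IR64 control 1 and 16 (0.0604%) for IR64 control 2. IR64 control 3 and APO control 2 were thus the libraries that most often crossed to the other cultivar. The balance within the class turned with the scaling, from 888 high and 2277 low to 1799 and 791 under median-of-ratios scaling and 1452 and 895 under quantile normalization. A total of 30 genes met both this rule and the rule for agreement, since the nearest library can be of the other cultivar even where the groups do not overlap.

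**Figure D2:**
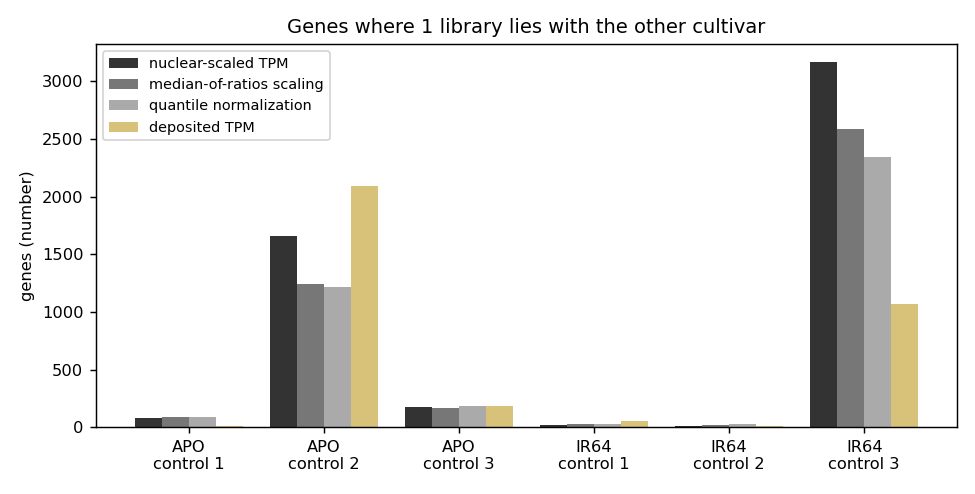
Number of genes in which 1 control library lies with the other cultivar while the other 5 libraries split by cultivar with a gap of at least 1 log2 unit. The y axis is the number of genes, the x axis the library that crosses, and bars are 4 scalings. In nuclear-scaled TPM the count is 3165 for IR64 control 3 and 1662 for APO control 2, and in deposited TPM APO control 2 has the higher count.

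The widest gap with IR64 control 1 and 2 high was in OsSIG5, at 8.27 log2 units. OsSIG5 (Os05g0586600), a sigma factor that directs chloroplast RNA polymerase to its promoters, stood at 0, 1.12 and 0 in APO, at 652 and 679 in the first 2 IR64 control libraries, and at 0.58 in IR64 control 3. BOR2 (Os01g0175700), of the borate transporter family, stood at 0.42, 0.75 and 0 in APO, and at 297, 432 and 1.43 in IR64 control 1 to 3. OsSWEET2b (Os01g0700100), a sugar transporter, was listed at 0 in APO and stood at 136, 144 and 0.090 in IR64 control 1 to 3. In each of these genes IR64 control 3 lay within or next to the APO range and far below its own group. PSY2 (Os12g0626400), phytoene synthase, the first committed step of carotenoid synthesis, stood at 3.83, 3.34 and 0 in APO and at 494, 565 and 1.47 in IR64. OsFRO7 (Os04g0444800), a ferric reductase, stood at 1.98, 4.87 and 6.69 in APO and at 974, 1226 and 2.63 in IR64. OsGGP (Os12g0190000), which acts in ascorbate synthesis, stood at 15.9, 10.3 and 18.5 in APO and at 1634, 1962 and 7.05 in IR64. The other named genes with the widest gaps were OS-PYDK, CCA1, OsSPS2 and OsPPT4, with gaps of 7.18, 6.51, 6.27 and 6.14 log2 units.

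Rubisco activase showed the same division at a very high level. OsRcaII (Os11g0707000), the locus of the enzyme that frees Rubisco of bound sugar phosphates, stood at 456, 780 and 495 in APO, and at 42486, 56335 and 278 in IR64 control 1 to 3. The cultivar difference of OsRcaII did not pass (log2 difference -3.96, SE 1.73, adjusted p = 0.49, limma), the 3 IR64 libraries being split. Since the nuclear loci are scaled to a fixed total, genes at such levels lower the scaled values of other genes in IR64 control 1 and 2, and the size of that effect was not tested.

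The widest gaps in the other direction, with IR64 control 1 and 2 low, held several regulators. OsBBX19 (Os06g0298200), a B-box zinc finger protein, stood at 174, 156 and 143 in APO, and at 3.66, 1.06 and 142 in IR64 control 1 to 3. SAPK9 (Os12g0586100), a SnRK2 protein kinase of osmotic stress and abscisic acid signalling, stood at 284, 253 and 310 in APO and at 10.5, 2.93 and 303 in IR64 control 1 to 3. DTH2 (Os02g0724000), a CONSTANS-like heading date gene, stood at 164, 109 and 256 in APO and at 4.65, 3.42 and 115 in IR64. In all of them IR64 control 3 lay among or next to the APO libraries. OsTHIC (Os03g0679700), a thiamine synthesis enzyme, stood at 1263, 1491 and 1239 in APO and at 47.0, 25.7 and 1143 in IR64. OsFKBP73, OsPCL1, OsXTH9, osACA3, OspTAC2 and OsRLCK233 completed the 10, with gaps of 4.49, 4.14, 3.87, 3.87, 3.81 and 3.78 log2 units. All 20 named genes stayed in the class under median-of-ratios scaling and quantile normalization, and 5 of the 10 low ones left it in deposited TPM.

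**Figure D3:**
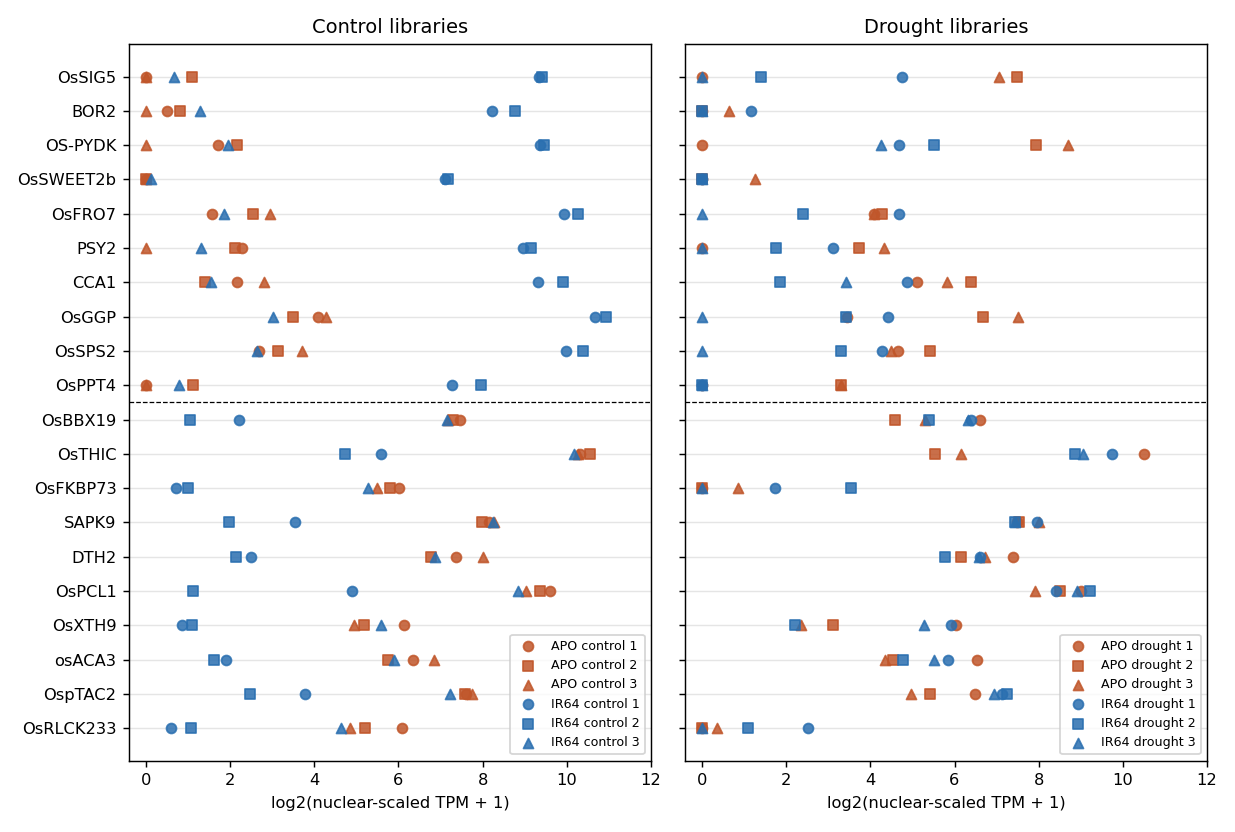
The 20 named genes in which IR64 control 3 lies with APO, in the control libraries (left) and the drought libraries (right). The x axis is log2(nuclear-scaled TPM + 1), colours mark the cultivar and shapes the library number. In the control libraries the triangle of IR64 control 3 sits with the APO points in every row, above the dashed line at low levels and below it at high levels.

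The circadian clock genes were divided between these patterns. Of 13 clock genes, all tested, none was called in either direction. IR64 control 3 lay with APO in 4 of them (30.8%), beside 11.9% of all genes tested and 2849 of 15770 genes with a filter of 5. A count of 4 in so short a list is a description only. CCA1 (Os08g0157600), the morning transcription factor of the clock, stood at 3.44, 1.63 and 6.01 in APO and at 636, 953 and 1.91 in IR64 control 1 to 3. OsPCL1 (Os01g0971800), the homologue of the Arabidopsis evening gene LUX, stood at 778, 653 and 523 in APO and at 28.7, 1.17 and 454 in IR64. OsELF3.2 (Os01g0566100), whose Arabidopsis counterpart acts in the evening complex with LUX, stood at 97.4, 62.2 and 65.3 in APO and at 8.53, 6.05 and 70.0 in IR64. FKF1 (Os11g0547000), a blue-light receptor of the afternoon in Arabidopsis, stood at 151, 195 and 94.2 in APO and at 16.0, 4.69 and 126 in IR64. CCA1 was thus high where the other 3 were low, in IR64 control 1 and 2 only. In deposited TPM CCA1 stayed in the class, whereas OsPCL1, OsELF3.2 and FKF1 left it.

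The other 9 clock genes did not reach the gap of 1 log2 unit. In GI and OsPRR1 IR64 control 3 also lay within the APO range while IR64 control 1 and 2 lay below it, with smaller gaps of 0.40 and 0.64 log2 units. GI (Os01g0182600), a clock component that links it to flowering, stood at 1131, 756 and 597 in APO and at 409, 452 and 895 in IR64. OsPRR1 (Os02g0618200), a pseudo-response regulator, stood at 136, 72.2 and 149 in APO and at 43.3, 45.9 and 92.1 in IR64, a log2 difference of 0.99 (SE 0.47, adjusted p = 0.49, limma). OsPRR95 (Os09g0532400), of the same family, stood at 390, 302 and 462 in APO and at 400, 479 and 324 in IR64. Values of OsPRR95 overlapped fully, and the difference was -0.06 (SE 0.43, adjusted p = 0.94). OsPRR73, OsPRR59, Hd2 (Os07g0695100), HD3B (Os06g0142600), OsZTL1 and OsZTL2 had log2 differences between -0.59 and 0.81, none of which passed. Sampling time is not among the labels, so the part of time of day in these values was not tested.

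**Figure D4:**
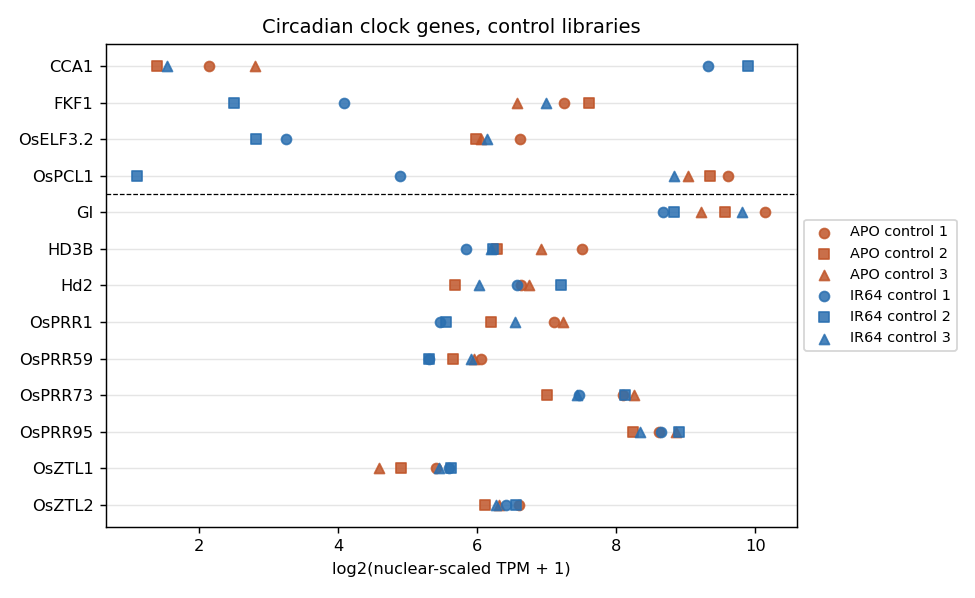
The 13 circadian clock genes in the 6 control libraries. The x axis is log2(nuclear-scaled TPM + 1), colours mark the cultivar and shapes the library number. In the 4 genes above the dashed line IR64 control 3 lies with the APO libraries and away from IR64 control 1 and 2, and the 9 below it do not reach a gap of 1 log2 unit.

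Flowering and light signalling genes gave no call. HD3A (Os06g0157700), a florigen made in leaves, stood at 27.4, 65.0 and 0 in APO and at 150, 184 and 26.9 in IR64, so IR64 control 3 fell within the APO range. Of 8 tested flowering genes 2 crossed in this way (25.0%), and of 11 light signalling genes 3 did (27.3%), beside 11.9% of all genes tested. Both counts are small and are a description only. PHYB (Os03g0309200), a red-light receptor, stood at 114, 71.8 and 104 in APO and at 24.4, 22.9 and 84.6 in IR64. PHYC (Os03g0752100), of the same receptor family, stood at 101, 73.0 and 80.4 in APO and at 21.4, 20.8 and 85.8 in IR64. PHYB and PHYC left the class under median-of-ratios scaling and in deposited TPM. PIL15 (Os01g0286100), a phytochrome-interacting factor, kept its cultivars apart, at 15.5, 14.8 and 33.0 in APO and 85.5, 67.0 and 68.4 in IR64, but did not pass (log2 difference -1.84, SE 0.44, adjusted p = 0.22, limma).

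Of 10 agronomic genes known to vary between rice cultivars, 7 were tested and none was called. The semidwarf gene 20ox2 (Os01g0883800), which makes gibberellin, stood at 8.44, 3.65 and 0 in APO and at 25.0, 18.8 and 8.08 in IR64 (log2 difference -2.25, SE 0.86, adjusted p = 0.47, limma), and IR64 control 3 lay with APO. Gn1a (Os01g0197700), a cytokinin oxidase of grain number, stood at 3.44, 0.74 and 15.5 in APO and at 0.76, 0.086 and 0.66 in IR64 (1.77, SE 0.93, adjusted p = 0.50). The highest APO value of Gn1a was in APO control 3, the library that stood apart. DEP1, WFP, WX1, NRT1.1B and SK2(T)(SCL had log2 differences of 1.35, 0.71, 1.14, 0.35 and 0.21, and DRO1, GS3 and SPK were too low in all 6 libraries to be tested. WX1 stood at 0, 0.41 and 9.52 in APO and at 0, 0.21 and 0.14 in IR64, so its difference rested on APO control 3.

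By function, the genes in which IR64 control 3 lay with APO took very unequal shares of the lists, beside 11.9% of all genes tested. The lists were matched by symbol with values of these libraries already known, so the shares are a description only. Genes at low levels seldom reach the gap, and with a filter of 5 the class held 2849 of 15770 genes. The share of all genes is therefore a low baseline for lists of strongly expressed genes, and the part of level was not tested. Of 22 B-box genes 14 (63.6%) were in the class, 8 with IR64 control 1 and 2 high and 6 low. OsBBX11 (Os04g0493000) stood at 238, 269 and 191 in APO and at 3516, 3334 and 181 in IR64. Of 12 chlorophyll synthesis genes 7 (58.3%) were in the class, and CAO (Os10g0567400), chlorophyllide a oxygenase, which makes chlorophyll b, stood at 27.9, 36.4 and 34.6 in APO and at 419.5, 614 and 37.8 in IR64. GSA (Os08g0532200), which makes the precursor aminolevulinate, went the other way, at 325, 343 and 256 in APO and 42.1, 28.6 and 298 in IR64. The pathway was thus split, with 3 genes high and 4 low in IR64 control 1 and 2.

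Of 26 tested aquaporins 13 (50.0%) were in the class, 11 high and 2 low in IR64 control 1 and 2. The tonoplast aquaporin OsTIP1 (Os03g0146100) stood at 32.0, 30.6 and 43.5 in APO and at 802, 850 and 33.7 in IR64. The plasma membrane aquaporin OsPIP2 (Os02g0629200) stood at 23.5, 30.7 and 15.1 in APO and at 641, 668 and 35.2 in IR64. In both, IR64 control 3 lay within or next to the APO range. Aquaporins of a family are similar in sequence and may share reads.

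Of 26 tested light harvesting and photosystem genes 12 (46.2%) were in the class, 7 high and 5 low. PSBS1 (Os01g0869800), which acts in the dissipation of excess light as heat, stood at 150, 514 and 99.8 in APO and at 4237, 2920 and 228 in IR64. Nitrogen genes (8 of 28, 28.6%) included the ammonium transporter AMT1 (Os04g0509600), at 9.31, 10.2 and 10.6 in APO and 305, 304 and 16.5 in IR64. Sugar and starch genes (12 of 39, 30.8%) included the leaf starch synthase GBSSII (Os07g0412100), at 20.1, 25.9 and 23.5 in APO and 939, 1326 and 25.4 in IR64. These genes again set IR64 control 1 and 2 against the other 4 libraries.

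Cytosolic ribosomal proteins were on the low side where they crossed, 14 of 70 (20.0%) and none high, with a median log2 difference of 0.61 beside 0.62 for all genes. Relative to all genes that median was -0.01, and it was 0.20 under quantile normalization and 0.43 without APO control 3. None of 26 tested LEA and dehydrin genes, which protect drying cells, was in the class, and none was called. Heat shock genes (6 of 53, 11.3%), disease resistance genes (10 of 86, 11.6%) and cytochrome P450 genes (11 of 72, 15.3%) lay near the share of all genes. In photorespiration (4 of 16, 25.0%), abscisic acid (7 of 27, 25.9%), the Calvin cycle (3 of 10) and Rubisco (2 of 6, 33.3%) the counts were small. The only list besides disease resistance with a called gene was cytochrome P450, with OsCYP96B5 (Os03g0140200) at 121, 150 and 81.8 in APO and 8.85, 4.78 and 18.6 in IR64.

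The drought libraries, which neither the test nor the classes used, gave a second reading of the called genes. Of the 67 genes higher in APO control plants, 61 had a higher mean in APO also under drought, beside 48.1% of all tested genes that were higher in APO control plants. Of the 16 higher in IR64, 15 kept that direction, beside 63.0% of the corresponding genes. The drought libraries of the cultivars did not overlap in 1 of the 67 (beside 3.25% of all genes higher in APO control plants) and in 8 of the 16 (beside 11.8%). In the 6 drought libraries as labelled limma called none of 23123 genes, with 1839 at an unadjusted p below 0.05 and a smallest adjusted p of 0.49. Nuclear loci took 1.21% of TPM in the library labelled APO drought 1, and it differed from the other APO drought libraries in cultivar genes too. Without it 2272 of 23617 genes were called (9.62%), among them 33 of the 83, 23 higher in APO (3.37% of all) and 10 higher in IR64 (6.25% of all). Of the 67, only 55 passed the filter and were tested in this fit and 54 in that of all 6, while the 16 were tested in both. In the same 5 libraries a gap of at least 1 log2 unit in the control direction was found in 39 of the 67 (beside 5.98%) and in 12 of the 16 (beside 7.5%). Leaving that library out is a choice that the outcome itself bears on, so the value from all 6 stands first.

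Genes with a called difference behaved differently in level under drought. OsTPP7 stood at 0, 16.1 and 23.6 in APO drought 1 to 3 and was listed at 0 in the 3 IR64 drought libraries. It was thus again measured in APO alone, though not in the library labelled APO drought 1. Mean read depth per base was 3.00, 14.3 and 1.04 in IR64 drought 1 to 3 and 0.33, 2.44 and 46.8 in APO drought 1 to 3. Of 26510 tested genes, 7637, 5102 and 11829 were listed at 0 in the former and 16900, 6556 and 1036 in the latter. A 0 in a shallow library may be a missed message. RAD51A1 stood at 0, 0 and 3.16 in APO drought and at 12.5, 15.3 and 26.7 in IR64 drought. Os05g0103800 was listed at 0 in all 3 APO drought libraries and stood at 65.2, 52.7 and 76.6 in IR64 drought. RAD51A1 and Os05g0103800 thus kept the cultivars apart in both treatments, and OsTPP7 did so only beside APO drought 2 and 3. PP2C1 stood at 164, 159 and 223 in APO drought and at 278, 362 and 338 in IR64 drought, with groups that do not overlap. OsWAK123 stood at 36.8, 0 and 0 in APO drought and at 33.7, 37.8 and 53.2 in IR64 drought, and Os12g0299700 at 60.4, 31.8 and 0 and at 94.4, 105 and 108. The library labelled APO drought 1 thus held OsWAK123 at the level of IR64.

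Under drought some of the called genes were low in both cultivars and others were not. RBBI2-1 stood at 40.6, 729 and 255 in APO drought and at 91.0, 48.7 and 92.7 in IR64 drought. OsJAC1 stood at 0, 14.5 and 41.6 in APO drought and was listed at 0 in IR64 drought, and HSR201 at 0, 0 and 0.56 in APO drought and 0 in IR64 drought. OsFWL8 was listed at 0 in all 6 drought libraries. Values of 0 in shallow libraries carry the same limit here. OsLOX11 stood at 0, 21.4 and 48.7 in APO drought and at 21.6, 5.08 and 0 in IR64 drought, where the cultivars overlapped. A test of whether the cultivar difference itself changed between control and drought called no gene in the fit of 12 libraries, where 2768 genes had an unadjusted p below 0.05. In a fit of 11 libraries, without the library labelled APO drought 1, it called 1148 of 26510 genes (4.33%), among them 12 of the 67 and 1 of the 16. OsJAC1, OsFWL8 and HSR201 were among these 12, with adjusted p of 0.00808, 0.0102 and 0.0134 (limma). The interaction test reuses the control values by which the 67 and the 16 were chosen. Their share among its calls is therefore not independent of that choice and is a description only.

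**Figure D5:**
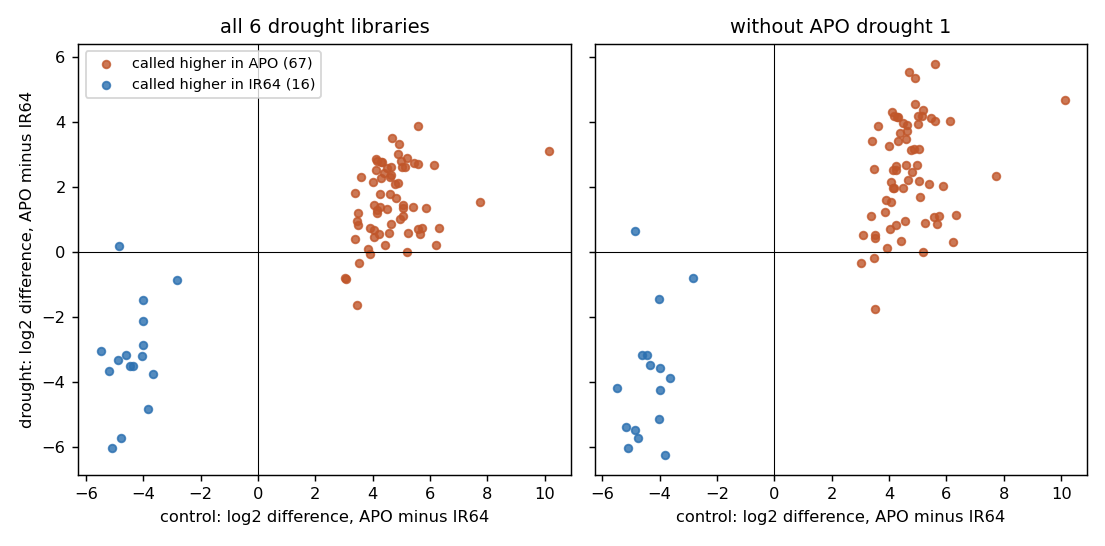
Cultivar differences of the 83 called genes in control and drought libraries. The x axis is the log2 difference, APO minus IR64, in the 6 control libraries, the y axis the same in the drought libraries, with all 6 (left) and without APO drought 1 (right), and each point is 1 gene. With all 6, 61 of 67 genes called higher in APO lie above 0 and 15 of 16 called higher in IR64 lie below 0.

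The genes in which IR64 control 3 lay with APO were also read in the drought libraries. This was done only in genes of the class, so no share over all genes stands beside the counts. The genes were chosen because IR64 control 1 and 2 stood against the other control libraries. A further library may fall with those others for that reason alone, and the shares are a description only. Of the 888 with IR64 control 1 and 2 high, all 3 IR64 drought libraries were nearer to the level of IR64 control 3 in 612 (68.9%). Of the 2277 with them low, this held in 1251 (54.9%). Taken singly, IR64 drought 1 to 3 did so in 85.4, 77.8 and 82.1% of the 888, and APO drought 1 to 3 in 88.2, 63.3 and 62.0%. In the 2277 the shares were 84.9, 75.4 and 67.8% for IR64 drought and 52.7, 38.3 and 33.0% for APO drought. A value of 0 counts towards IR64 control 3 in the 888, and such values were common in the shallow libraries. APO drought 2 and APO drought 3 both lay with IR64 control 1 and 2 in 269 of the 888 (30.3%) and in 1231 of the 2277 (54.1%). OsSWEET2b was an example of the first kind, listed at 0 in the 3 IR64 drought libraries, and OsPCL1 of the second, at 339, 598 and 482. What sets IR64 control 3 beside APO in these genes was not tested.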

How the data were processed

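Polysome-bound mRNA of rice leaf was analysed in 6 control libraries (3 per cultivar), with the 6 drought libraries as a second reading. Tools named in the submitters' processing notes, without a stated role, are DESeq2 2.11.38, HISAT2 2.1.0 and StringTie 1.3.4. Per the file headers, each table deposited by the authors gives coverage (read depth averaged over a gene's bases), FPKM and TPM for every gene. The deposited TPM values include ribosomal RNA and organelle genes, and the authors' FPKM values were used only as an alternative. Read counts were not used here, so no count test was run. The genome build is not given in the sources used here.

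TPM was rescaled to an equal total over 37849 nuclear loci of the 12 chromosomes, and log2(value + 1) was tested with limma 3.58.1 under R 4.3.3, an intensity trend, cultivar as the only term and a filter of a mean of at least 1. The SE is the moderated one. Python 3.11.15 with numpy 2.4.6 and pandas 2.3.3 handled the tables, and matplotlib 3.10.9 the figures. The fit was tested on simulated data. An exact permutation test of 3 against 3 libraries cannot go below p = 0.10, so none was used.

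Named genes were, by rule, the 10 largest called differences with a symbol in each direction (filled, where fewer were called, by size from uncalled genes whose groups do not overlap) and the 3 largest without one, the 10 widest gaps in each direction of the class in which IR64 control 3 lies with APO, up to 4 members of each list, and every clock and agronomic gene. Which of the list members were described in full (such as OsBBX11, GSA and OsWAK15) was chosen after their values were seen. Lists were matched by locus or symbol, and the symbol patterns were written after called genes and the highest genes of each library had been seen. The members and lists were chosen with earlier results of these data known. Symbols are those of the deposited tables, present for 9826 nuclear loci. The alternatives were other pseudocounts, filters, scalings and sets of libraries, library weights, a replicate block and leaving out each library. The fit without both APO control 3 and IR64 control 3, the interaction test and the drought test on genes chosen in control libraries were added after the data were seen.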

Additional observations from a re-analysis of the deposited data

How the results depend on the processing

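All 83 genes kept their direction in every alternative, which was largely fixed in advance because their groups do not overlap. The number called did not keep its size. It was 12 with a pseudocount of 0.1 (11 higher in APO, 1 in IR64), 1 with no filter (1 and 0), 40 with a filter of 5 (34 and 6), 323 in deposited TPM (67 and 256), 364 in deposited FPKM (69 and 295), 101 under median-of-ratios scaling (63 and 38), 56 under quantile normalization (32 and 24), 29 in a fit of 12 libraries (23 and 6), 149 in 11 (104 and 45), 172 in 10 (132 and 40), 13895 with library weights (10726 and 3169) and 6845 without both APO control 3 and IR64 control 3 (5036 and 1809). The last of these keeps only 2 libraries per cultivar. Leaving out 1 library gave 1 to 2249 calls, 1 to 1588 higher in APO and 0 to 661 higher in IR64, the lowest without APO control 1 or 2 and the highest without IR64 control 3. Across the alternatives OsJAC1 was called in 19 of 19, and 50 of the 83 genes in at least 10. Deviations of same-numbered libraries correlated at -0.21, -0.09 and -0.15. With 3 libraries per cultivar, these values cannot show whether same-numbered libraries were handled together. A replicate block called 64 genes (39 and 25), 46 of the 83 among them. The 341 genes with a gap and APO above became 657 with a pseudocount of 0.1, 221 with a filter of 5 and 53 in deposited TPM, and 356 to 2675 over leaving out each library. The 179 with IR64 above became 96 with a filter of 5, and 184 to 1066 over leaving out each library. Genes in which IR64 control 3 lay with APO and IR64 control 1 and 2 were high numbered 1799 under median-of-ratios scaling, 1452 under quantile normalization, 381 with a gap of 2 and 2016 with no minimum gap, beside 888. Those with IR64 control 1 and 2 low numbered 36 in deposited TPM, 791, 895, 520 and 7926, beside 2277. In the drought libraries 0 of the 83 were called again with all 6 or with any 1 left out except the library labelled APO drought 1, and 33 without it. With all 6, only 54 of the 67 higher in APO passed the filter and were tested. The causes of these shifts were not tested, and low read depth in APO control 3 limits every value that rests on it.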

Other observations

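Called genes were unevenly spread over the chromosomes. Chromosome 11 held 13 called genes among 1470 tested (0.884%) and chromosome 12 held 16 among 1451 (1.1%), beside 0.313% over all genes, whereas chromosome 10 held none among 1388. Genes in which IR64 control 3 lay with APO took 10.5% of the tested genes of chromosome 11 and 11.2% of chromosome 12, beside 11.9% over all genes. The spread over chromosomes was not tested.

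There were 5 pairs of neighbouring called genes, all higher in APO and none with a symbol. Os11g0697600 and Os11g0699532 lie within 45.1 kb on chromosome 11, at 44.0, 40.8 and 30.6 and at 60.9, 61.5 and 41.1 nuclear-scaled TPM in APO control 1 to 3, and at 0 to 0.082 in IR64. Os01g0538000 and Os01g0539400 lie within 145 kb on chromosome 1, at 108, 39.3 and 72.0 and at 43.8, 21.6 and 90.4 in APO, and at 0 to 2.48 in IR64. In the other pairs the gene models overlap, so their reads cannot be told apart. Of the 83 called genes 22 overlap another annotated nuclear locus.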
